A study of Mus musculus with 6 samples.

Results

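The natriuretic peptide genes *Nppa*, *Nppb* and *Nppc*, the receptor genes *Npr1*, *Npr2* and *Npr3*, and *Corin* were read from a bulk RNA-Seq table of the mouse cardiac outflow tract (OFT) at embryonic day E13.5. They were listed by gene identity, and all 7 were among the 28777 genes of the table. The series holds 6 libraries, each made from 3 pooled OFTs, 18 OFTs in all. In 3 libraries the embryos were labelled Notch1-het and Nos3-null (*Notch1*+/-; *Nos3*-/-, called mutant here), and in the other 3 they were labelled wildtype. Per the study's methods the alleles come from *Notch1* and *Nos3* knockout strains kept on a C57/BL6J background, and the wildtype embryos were littermates. Since the dissection took the whole OFT with its conal cushions, each library holds several cell types in proportions that were not controlled. Read counts per gene were scaled by the trimmed mean of M-values (TMM) to reads per 1000000 (CPM), the level used below unless another scale is named.

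The natriuretic peptides are hormones that signal through cyclic GMP. *Nppa* encodes atrial natriuretic peptide and *Nppb* encodes B-type natriuretic peptide, both made by cardiomyocytes as precursors, and *Corin* encodes the transmembrane serine protease that cleaves the *Nppa* precursor. *Nppc* encodes C-type natriuretic peptide, best known as a product of endothelium and cartilage. *Npr1* encodes the guanylyl cyclase receptor for the first pair of peptides, *Npr2* the guanylyl cyclase receptor for C-type peptide, and *Npr3* the clearance receptor, which binds all of them and has no cyclase domain. In the embryonic heart *Nppa* is a classical marker of the working myocardium of the chambers and is low in the myocardium of the OFT. Nos3, the endothelial nitric oxide synthase deleted in the mutant, feeds the same second messenger through the soluble guanylyl cyclases.

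*Nppa* (chr4:148000722-148002079, plus strand, mm10) and *Nppb* (chr4:147985788-147987205, plus strand, mm10) are neighbours, with 13516 bases between them. As these neighbours had the widest ranges of level over the libraries among the members, the 250 bases before the RefSeq start of each (GRCm38.p6) are shown. Capitals mark every match, on either strand, to a motif of a cardiac regulator or of the core promoter. For GATA factors the letters searched were AGATAA and also TGATAA, for NKX2-5 they were AAGTG, and for TEAD factors they were those of the MCAT element, GGAATG. The letters of the core promoter were TATAAA, and the CArG box of SRF was searched by its consensus. These motifs were chosen after the levels had been seen.
Nppa, chr4:148000472-148000721, plus strand: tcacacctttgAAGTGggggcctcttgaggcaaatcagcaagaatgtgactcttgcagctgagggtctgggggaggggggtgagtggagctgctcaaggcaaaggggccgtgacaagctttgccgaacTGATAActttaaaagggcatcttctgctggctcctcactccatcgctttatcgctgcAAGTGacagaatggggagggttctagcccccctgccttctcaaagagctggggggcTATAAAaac
Nppb, chr4:147985650-147985899, plus strand: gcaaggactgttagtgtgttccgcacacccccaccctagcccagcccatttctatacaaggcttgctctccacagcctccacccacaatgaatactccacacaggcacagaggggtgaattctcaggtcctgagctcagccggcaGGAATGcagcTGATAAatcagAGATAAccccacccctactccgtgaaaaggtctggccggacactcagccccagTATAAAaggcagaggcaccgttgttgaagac
The *Nppa* window held 1 TGATAA, 2 AAGTG and 1 TATAAA. The *Nppb* window held 1 GGAATG, 1 TGATAA and 1 AGATAA close together, and 1 TATAAA. None of these matches overlapped another. Of the other 5 members, *Nppc* held 1 TATAAA and the remaining 4 held no match in this window. Among 32851 RefSeq promoter windows of the same length, 9.99% held AGATAA, 7.94% TGATAA, 40.7% AAGTG, 12.6% GGAATG, 12.4% TATAAA and 1.47% a CArG box, which neither peptide gene held. The gene model used for lengths starts *Nppb* inside its window, at base 147985788, so the last part of that window lies in the first exon by that model. All marked matches of *Nppb*, which begin 105 to 31 bases before the RefSeq start, lie in that part. The TATAAA of *Nppa* begins 9 bases before its RefSeq start, and that of *Nppb* 31 bases before.

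Libraries totalled 34729103 to 44387490 counts. *Notch1* was higher in the libraries labelled mutant, at 155, 161 and 139 CPM against 74.3, 88.2 and 83.6 CPM (log2 fold change 0.89, edgeR adjusted p = 0.0313), and this runs against a label of heterozygous loss, so the groups are named by their labels throughout. *Nos3* stood at 22.1, 22.0 and 20.4 CPM in the libraries labelled mutant and at 31.8, 47.2 and 48.1 CPM in those labelled wildtype (-0.98, adjusted p = 0.128). Gene counts do not show whether the reads came from inside the deleted parts. The defining markers of myocardium, endothelium, endocardium, smooth muscle and mesenchyme were above 0 in all 6 libraries. The libraries were not alike in tissue content. The summed level of 10 myocardial markers spanned 13276 to 18619 CPM in the libraries labelled mutant and 18759 to 25964 CPM in those labelled wildtype. The sum of 7 mesenchymal markers spanned 4641 to 5381 CPM and 2561 to 4872 CPM, respectively. In bulk tissue, fewer cells of a type and less RNA per cell cannot be told apart. Wildtype replicates 2 and 3 have opposite library numbers in their titles and descriptions, and they are numbered by title here.

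None of the 7 members differed between the groups in edgeR's quasi-likelihood test at an adjusted p of 0.05 or less, a threshold passed by 0.0213% of the 28157 genes tested (6 genes). Unadjusted p was under 0.05 for 3 members (*Nppc*, *Npr2* and *Npr3*), against 16.1% of all genes tested. The libraries of the groups did not overlap for 2 members (*Nppc* and *Npr2*, both higher in the libraries labelled mutant), against 19.6% of all genes in either direction and 10.7% in that direction. DESeq2's Wald test called 1 member, *Npr2*, against 2.64% of all genes (742 genes). The median log2 fold change was -0.20 over the 7 members and 0.01 over all genes tested. With 3 libraries a group, the exact two-sided permutation test used for single values cannot give a p below 0.1.

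**Figure D1:**
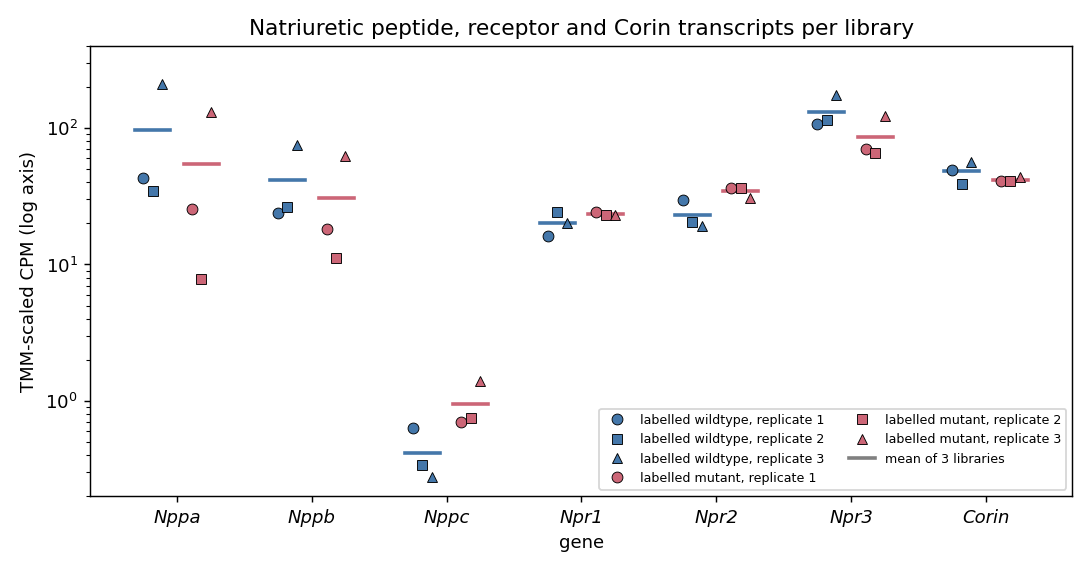
TMM-scaled CPM on a log axis for each of the 7 genes in the 3 libraries labelled wildtype (blue) and the 3 labelled mutant (red), with bars at the group means. *Nppa* and *Nppb* spread over 27.0-fold and 6.72-fold ranges with replicate 3 highest in both groups, whereas *Npr1* and *Corin* stayed in narrow ranges.

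*Nppa*, the cardiac atrial peptide gene, was measured at 42.9, 34.8 and 212 CPM in wildtype replicates 1 to 3 and at 25.7, 7.84 and 130 CPM in mutant replicates 1 to 3. These values rest on 1907, 1443 and 6884 reads and on 1027, 294 and 4904 reads. One library in each group was far above the others, replicate 3 in both, and the groups overlapped. The highest library held 27.0 times the level of the lowest. The mean over the libraries labelled mutant was 54.5 ± 66.0 CPM, and that over the libraries labelled wildtype was 96.6 ± 100.1 CPM (SD, n = 3 each). Their log2 fold change of -0.82 (SE 0.87, 95% interval -2.73 to 1.09) was smaller than its standard error, with an edgeR adjusted p of 0.68. The exact permutation p was 0.4. Without wildtype replicate 3 the log2 fold change turned to 0.49, and without mutant replicate 3 it was -2.52. Leaving out any of the other 4 libraries kept it below 0. Within groups, the SD of log2 CPM was 1.75 for *Nppa*, larger than that of 99.95% of the 16655 genes that averaged 1 CPM or more, whose median SD was 0.16.

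*Nppb*, the B-type peptide gene, had a smaller range between libraries. It stood at 23.9, 26.4 and 74.8 CPM in the libraries labelled wildtype and at 18.3, 11.1 and 62.4 CPM in those labelled mutant. As for *Nppa*, replicate 3 was highest in each group, mutant replicate 2 was lowest of all, and the groups overlapped. The means were 30.6 ± 27.8 CPM under the mutant label and 41.7 ± 28.7 CPM under the wildtype label (SD, n = 3 each). The log2 fold change was -0.44 (SE 0.57, 95% interval -1.71 to 0.82, edgeR adjusted p = 0.746), within the spread of the libraries. Without wildtype replicate 3 it was 0.28, and without mutant replicate 3 it was -1.50. The within-group SD of 1.11 on the log2 scale exceeded that of 99.7% of genes. The log2 ratio of *Nppa* to *Nppb* counts, which no scaling touches, was 0.84, 0.39 and 1.50 in the libraries labelled wildtype and 0.49, -0.50 and 1.06 in those labelled mutant. *Nppa* had more reads than *Nppb* in 5 of 6 libraries, all but mutant replicate 2. The ratio differed by -0.57 between the group means and did not pass the exact permutation test (p = 0.5). On leaving out 1 library this difference ranged from -0.14 (without mutant replicate 2) to -0.92 (without mutant replicate 3).

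*Nppc*, the C-type peptide gene, was the member with the fewest reads. It had 28, 14 and 9 reads in the libraries labelled wildtype and 28, 28 and 53 reads in those labelled mutant, all above the floor of 3 reads. This gave 0.630, 0.337 and 0.277 CPM against 0.700, 0.747 and 1.41 CPM, and every library labelled mutant was above every library labelled wildtype. The log2 fold change was 1.17 (SE 0.45, 95% interval 0.18 to 2.16) with an edgeR unadjusted p of 0.0249 and an adjusted p of 0.26. The exact permutation p was 0.1, the smallest it can be. Wildtype replicate 1 and mutant replicates 1 and 2 held the same number of reads, so the lack of overlap between them rests on the scaling. Over the 17 alternatives the log2 fold change of *Nppc* stayed above 0 (0.78 to 1.61) and was not called in any of them.

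**Figure D2:**
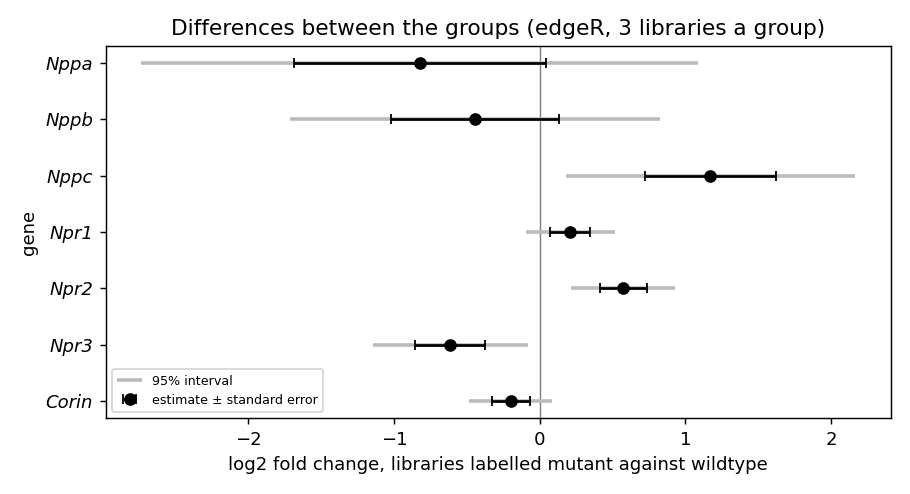
Log2 fold change of each gene, libraries labelled mutant against those labelled wildtype, as estimate with standard error (black) and 95% interval (grey) from edgeR. The interval of *Nppa* runs from -2.73 to 1.09, that of *Npr2* from 0.22 to 0.93 and that of *Npr3* from -1.15 to -0.08, and no gene passed adjustment over all genes.

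*Npr2*, the guanylyl cyclase receptor of C-type peptide, stood at 29.9, 20.4 and 19.0 CPM in the libraries labelled wildtype and at 36.3, 36.3 and 30.8 CPM in those labelled mutant. All 3 libraries labelled mutant were above all 3 labelled wildtype, though mutant replicate 3 and wildtype replicate 1 were close. The means were 34.5 ± 3.18 CPM and 23.1 ± 5.91 CPM (SD, n = 3 each), a 1.49-fold difference. The log2 fold change was 0.58 (SE 0.16, 95% interval 0.22 to 0.93). In edgeR its unadjusted p was 0.00468 and its adjusted p was 0.194, and the exact permutation p was 0.1. The call depended on the tool, on 1 library and on the replicate number as a block, which was not taken to pair the samples. With the block the edgeR adjusted p was 0.00545, and with the GC content and length correction added it was 0.00759. DESeq2's Wald test gave 0.57 with an adjusted p of 0.0406, and edgeR without wildtype replicate 1 gave 0.81 with an adjusted p of 0.0133, within a range over 17 alternatives of 0.00545 to 1. With the mean of the myocardial markers, which did not overlap between the groups, as a covariate, the log2 fold change of *Npr2* was 0.22. Without wildtype replicate 1, 2593 genes (9.45%) passed the same threshold. The mesenchymal marker sum ran in the same direction as *Npr2*, and in the libraries labelled wildtype it was highest in replicate 1 (4872 CPM against 3078 and 2561 CPM), where *Npr2* was highest too. Its part in the *Npr2* difference was not tested.

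*Npr3*, the clearance receptor, had the highest mean level per kb of the receptors in both groups. In CPM it stood at 107, 114 and 173 CPM in the libraries labelled wildtype and at 70.4, 65.2 and 122 CPM in those labelled mutant. Mutant replicate 3 lay above wildtype replicates 1 and 2, so the groups overlapped. The means were 85.9 ± 31.4 CPM under the mutant label and 131.5 ± 36.4 CPM under the wildtype label (SD, n = 3 each). The log2 fold change was -0.61 (SE 0.24, 95% interval -1.15 to -0.08), with an edgeR unadjusted p of 0.0276 and an adjusted p of 0.264. By the exact permutation test p was 0.3. With the replicate number as a block, not taken to pair the samples, the log2 fold change was -0.64 (edgeR adjusted p = 0.00153). With the mean of the myocardial markers, which did not overlap between the groups, as a covariate, it was 0.15. On leaving out 1 library it ranged from -0.37 (without wildtype replicate 3) to -0.96 (without mutant replicate 3).

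*Npr1*, the receptor of the atrial and B-type peptides, varied least among the receptors under the mutant label. It stood at 16.3, 24.2 and 20.1 CPM in the libraries labelled wildtype and at 24.2, 22.9 and 22.9 CPM in those labelled mutant. The groups overlapped, with means of 23.3 ± 0.756 CPM and 20.2 ± 3.95 CPM (SD, n = 3 each). The log2 fold change was 0.21 (SE 0.14, 95% interval -0.10 to 0.52, edgeR adjusted p = 0.479), and its interval included 0. This change was close in size to the within-group SD of log2 CPM (0.20). It was 0.08 without wildtype replicate 1 and 0.36 without wildtype replicate 2. *Corin*, the protease of the *Nppa* precursor, behaved similarly, at 49.6, 38.8 and 55.9 CPM under the wildtype label and 41.0, 40.6 and 44.1 CPM under the mutant label. Its log2 fold change was -0.20 (SE 0.13, 95% interval -0.48 to 0.09, edgeR adjusted p = 0.47), and the groups overlapped. It was -0.08 without wildtype replicate 3 and -0.33 without wildtype replicate 2. *Corin* thus varied by far less than the peptide gene whose product it cleaves.

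Antisense genes share exonic bases with 3 members, and the strand setting of the read counting is not given in the sources used here. *Nppa* shares 532 of its 865 exonic bases with *Gm13054*, which had at most 10 reads in any library. *Npr1* shares 559 of 4783 bases with *Gm16048*, which had at most 9 reads. *Npr2* shares 266 of 4667 bases with *Gm12473*, which had 43 to 75 reads. Reads over the shared bases cannot be assigned to one partner without strand.

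To compare levels between genes, CPM was divided by the exonic length in kilobases. On this scale the wildtype means were 112 for *Nppa*, 53.4 for *Nppb*, 14.0 for *Npr3*, 8.91 for *Corin*, 4.95 for *Npr2*, 4.22 for *Npr1* and 0.398 for *Nppc* CPM per kb. Under the mutant label the corresponding means were 63.0, 39.2, 9.15, 7.76, 7.38, 4.88 and 0.912 CPM per kb, in the same order. *Nppa* was the highest member in 5 of 6 libraries, with *Nppb* above it in mutant replicate 2, and *Nppc* was the lowest in all 6. Between neighbours in this order, the libraries labelled wildtype overlapped for *Nppa* and *Nppb* and for *Npr2* and *Npr1*. Those labelled mutant overlapped for *Nppa* and *Nppb*, for *Npr3* and *Corin*, and for *Corin* and *Npr2*. The other neighbours did not overlap.

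The share of *Npr3* among the receptors varied between libraries. Of the 3 receptor levels summed per kb, *Npr3* made up 53.8%, 56.3% and 69.0% in the libraries labelled wildtype and 36.9%, 35.6% and 53.3% in those labelled mutant. It was above *Npr1* per kb in all 6 libraries and above *Npr2* in 4, being below *Npr2* in mutant replicates 1 and 2. The log2 ratio of *Npr3* to *Npr2* counts was 1.84, 2.49 and 3.19 against 0.96, 0.84 and 1.99, a difference of -1.24 between group means (exact permutation p = 0.2). For *Npr3* to *Npr1* it was 2.72, 2.24 and 3.11 against 1.54, 1.51 and 2.41, a difference of -0.87 (exact permutation p = 0.2). In both ratios the groups overlapped, since mutant replicate 3 lay above 1 wildtype library, and neither difference passed the test.

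**Figure D3:**
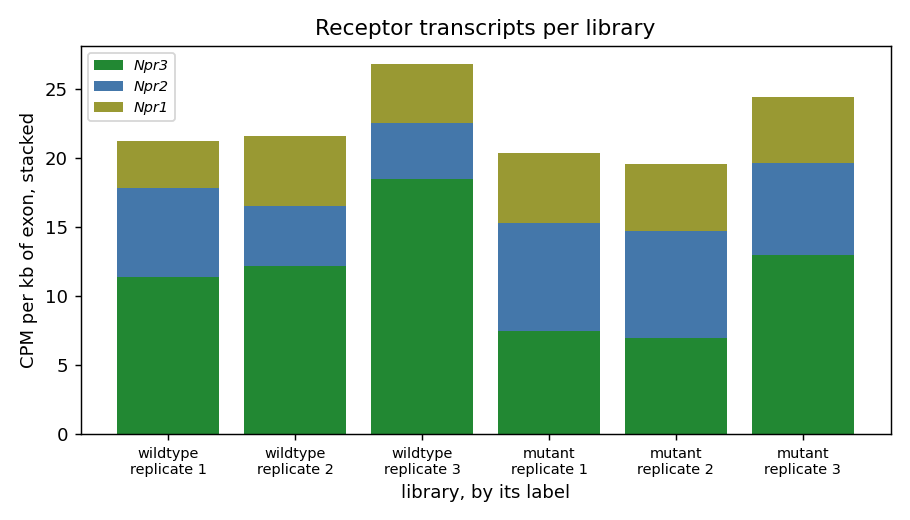
Stacked bars of *Npr3*, *Npr2* and *Npr1* levels in CPM per kb of exon, 1 bar for each library. The *Npr3* part ranges from 69.0% of the total in wildtype replicate 3 to 35.6% in mutant replicate 2, and mutant replicate 3 (53.3%) is close to wildtype replicate 1 (53.8%).

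The high level of *Nppa* and *Nppb* in replicate 3 of each group was shared by most of the listed markers of chamber myocardium. All 7 chamber myocardium markers were highest in wildtype replicate 3 and lowest in mutant replicate 2. Replicate 3 was the highest library of both groups for 6 of the 7, the exception being *Irx2*, a transcription factor gene that stood at 4.15, 1.81 and 4.14 CPM in mutant replicates 1 to 3. Their sum was 308, 387 and 785 CPM under the wildtype label and 212, 155 and 431 CPM under the mutant label. *Bmp10*, a growth factor gene of trabecular myocardium, stood at 10.9, 9.92 and 66.0 CPM against 4.07, 1.55 and 36.1 CPM. *Gja5*, which encodes a gap junction protein of the chambers, stood at 43.1, 50.9 and 102 CPM against 28.5, 26.0 and 56.5 CPM. The general myocardial markers shared this order in a smaller range, with replicate 3 highest in both groups for 9 of 10 and the sum spanning 13276 to 25964 CPM. Of the listed atrial markers 5 of 9 had replicate 3 highest in both groups, and of the ventricular markers 4 of 6. Outside the myocardium, 4 of 8 endothelial, 1 of 6 endocardial, 1 of 6 smooth muscle and 1 of 5 cartilage markers had this order. No marker of the other listed cell types had it. None of the 10 myocardial and 7 chamber markers was at 0 in any library. How far tissue content entered the *Nppa* and *Nppb* values was not tested as a cause. With the myocardial mean as a covariate, the log2 fold changes were 1.94 for *Nppa* and 1.41 for *Nppb* (edgeR adjusted p = 0.101 and 0.0789, within ranges over 17 alternatives of 0.001 to 0.937 and 0.0153 to 0.989). The covariate itself did not overlap between the groups. It was 10.22, 10.28 and 10.63 log2 CPM under the wildtype label and 9.97, 9.77 and 10.19 under the mutant label. Its effect and that of the group cannot be told apart with these libraries. The log2 level of *Nppa* relative to the myocardial mean was -4.79, -5.16 and -2.90 in the libraries labelled wildtype and -5.28, -6.79 and -3.17 in those labelled mutant. The difference of -0.80 between group means did not pass the exact permutation test (p = 0.4).

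Genes with a library pattern most like each of 4 members were ranked by the root mean square difference of centred log2 CPM over the 6 libraries, among the 13088 genes that averaged 5 CPM or more. Nearest to *Nppa* were *Bmp10* (0.33), *Gtsf1* (0.62) and *Nppb* (0.63). Nearest to *Nppb* were *Slc16a12*, which encodes a solute carrier (0.20), *Myl1*, a myosin light chain (0.28), and *Cited1*, a transcriptional co-regulator among the chamber markers (0.28). No gene came within 0.2 of either peptide gene. *Npr3* was followed most closely by *Sh3kbp1* (0.06), *Sh3bgr* (0.07) and *Tmem71* (0.08), with 191 genes within 0.2. *Npr2* was followed by *Nkd1*, which encodes an inhibitor of Wnt signalling (0.04), *Zfhx3* (0.04) and *Dleu2* (0.05), with 653 genes within 0.2. This distance grows with the range of a gene, which over the libraries was 4.75 log2 units for *Nppa*, 2.74 for *Nppb*, 1.41 for *Npr3* and 0.93 for *Npr2*. The points are 6 libraries that also differ in depth and tissue content, and likeness here is a description.

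**Figure D4:**
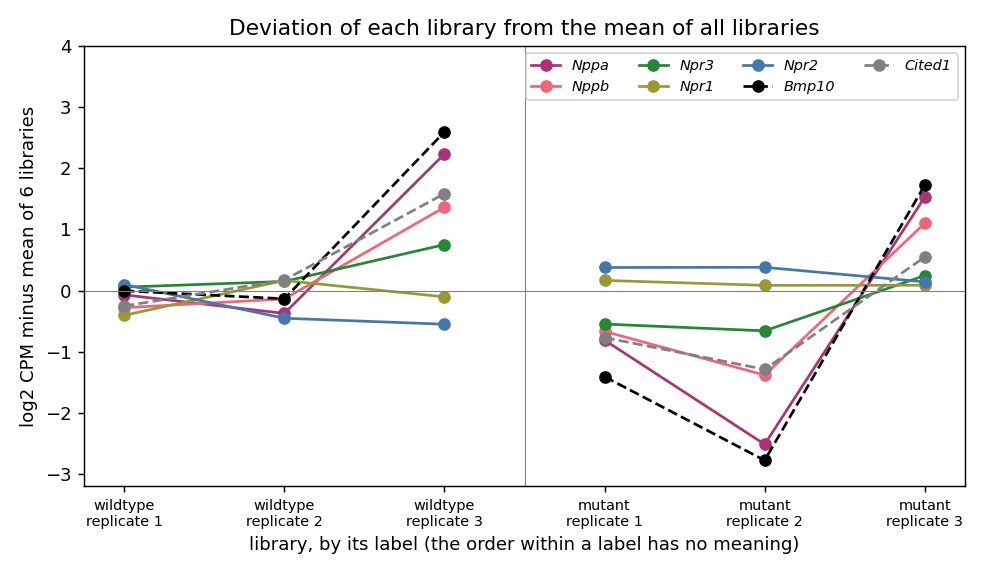
Log2 CPM of 5 members and of *Bmp10* and *Cited1* (dashed) in each library, minus the mean of that gene over the 6 libraries. *Nppa* and *Bmp10* reach 2.23 and 2.59 in wildtype replicate 3 and -2.51 and -2.77 in mutant replicate 2, while *Npr1* stays between -0.40 and 0.17.

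Transcription factors known to act on *Nppa* or *Nppb* varied less than the peptide genes, 4 of 20 (*Tbx5*, *Isl1*, *Tbx3* and *Msx2*) by more than 2-fold between their highest and lowest library. Of the 20 such genes, 12 had a log2 fold change above 0 and 8 below 0, with a median of 0.13. None was called by edgeR. Unadjusted p was under 0.05 for 6 (*Nkx2-5*, *Myocd*, *Tbx2*, *Tbx3*, *Rest* and *Hey2*, against 16.1% of all genes), and the groups of 5 did not overlap (*Gata4*, *Myocd*, *Tbx2*, *Rest* and *Hey2*, against 19.6%). DESeq2 called *Hey2* alone (against 2.64% of all genes). Replicate 3 was the highest library of both groups for 2 of the 20, *Tbx5* and *Hey2*. *Tbx5*, an activator of *Nppa* named for this order after its values were seen, stood at 16.5, 18.1 and 29.7 CPM under the wildtype label and 14.0, 13.6 and 39.9 CPM under the mutant label. The factors with the largest log2 fold changes were *Tbx3*, a repressor of chamber genes (0.62, adjusted p = 0.252), *Isl1*, a factor of second heart field progenitors (0.56, adjusted p = 0.494), *Msx2* (0.51, adjusted p = 0.424) and *Nkx2-5*, a cardiac activator (-0.45, adjusted p = 0.223). *Nkx2-5* stood at 60.9, 77.8 and 90.0 CPM against 61.2, 47.8 and 58.5 CPM, and its groups overlapped. *Gata4*, whose binding motif is among those in capitals above, ran from 237 to 294 CPM over the 6 libraries and was also named after its values were seen.

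The other genes of the natriuretic peptide and cyclic GMP pathway were, like the members, not called by edgeR. Of 37 listed, 32 were tested, 18 with a log2 fold change above 0 and 14 below 0, with a median of 0.07. Unadjusted p was under 0.05 for 4 (*Furin*, *Pcsk6*, *Mme* and *Pln*, against 16.1% of all genes), and these were also the 4 whose groups did not overlap (against 19.6%). DESeq2 called 2, *Pln* and *Pcsk6* (against 2.64%). Among pathway genes that averaged 1 CPM or more, the largest difference was that of *Rgs4*, a regulator of G protein signalling (0.77, edgeR adjusted p = 0.325). Next were *Pln*, which encodes the calcium pump inhibitor phospholamban (-0.60, adjusted p = 0.153), and *Pcsk6*, the convertase that activates corin (-0.54, adjusted p = 0.194). *Mme*, which encodes neprilysin, a peptidase that degrades natriuretic peptides, followed (-0.49, adjusted p = 0.203). *Pln* stood at 129, 120 and 144 CPM under the wildtype label and 84.4, 75.5 and 99.0 CPM under the mutant label, without overlap. *Pcsk6* stood at 23.2, 19.7 and 27.3 CPM against 18.2, 16.5 and 13.53 CPM, also without overlap. For *Mme* the values were 20.9, 17.9 and 15.1 CPM against 11.3, 12.8 and 14.4 CPM. *Furin*, a convertase of natriuretic peptide precursors, was the fourth gene without overlap (140, 135 and 152 CPM against 172, 165 and 158 CPM), and it is named here after its values were seen. Downstream of nitric oxide, the soluble guanylyl cyclase subunit genes *Gucy1a1* and *Gucy1b1* had log2 fold changes of -0.11 and -0.14, and *Prkg1*, the cyclic GMP dependent kinase gene, one of -0.004 (adjusted p = 0.655, 0.489 and 0.992). These 3 were also chosen after their values were seen. *Pde2a* overlaps a second gene identifier in the annotation and its near-zero level is uncertain.

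The genes around *Nppb* and *Nppa* on chromosome 4 varied less than both. Over the libraries, none of 5 neighbours varied by more than 2-fold, against 27.0-fold for *Nppa* and 6.72-fold for *Nppb*. None was called by edgeR (2 at an unadjusted p under 0.05, *Plod1* and *Mfn2*, against 16.1% of all genes) or by DESeq2. *Clcn6*, a chloride transporter gene, ran from 23.1 to 26.8 CPM (log2 fold change 0.09). *Agtrap*, which encodes an angiotensin receptor associated protein, ran from 22.5 to 32.9 CPM (-0.04). For *Plod1*, which encodes a collagen lysyl hydroxylase, the values were 97.6, 82.0 and 78.0 CPM under the wildtype label and 111, 116 and 102 CPM under the mutant label (0.35, adjusted p = 0.212). *Mfn2*, a mitochondrial fusion gene, had a log2 fold change of -0.33 (adjusted p = 0.294) and *2510039O18Rik* one of 0.08. *Clcn6* and *Plod1* were the 2 neighbours without overlap between groups, against 19.6% of all genes.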

How the data were processed

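RNA was taken from E13.5 OFTs, and libraries were made with a stranded total RNA kit after ribosomal RNA depletion and sequenced as paired-end 50 bp reads. Per the study's methods and the submitters' processing notes, the authors aligned reads to mm10 with TopHat2 2.1.0 and Bowtie2 and deposited raw counts per gene, counted with GenomicAlignments. The annotation release and strand setting are not given in the sources used here. The deposited counts were tested with edgeR 4.0.16 (R 4.3.3), glmQLFit and glmQLFTest, TMM scaling, group as the only term, after leaving out genes with 5 or fewer reads in all (28157 of 28777 genes tested). P-values were adjusted by Benjamini-Hochberg over all genes tested. DESeq2 1.42.0, limma 3.58.1, other scalings and filters, GC content and length correction, a myocardial covariate, blocks and leaving out each library were alternatives. The permutation tests were exact and two-sided. Gene names, positions and exon lengths came from GENCODE M21, which held 28723 of the identifiers, and promoters from RefSeq. Genes named were the members, called genes or otherwise the 4 largest changes of each list with a mean of at least 1 CPM, the neighbours, and the 3 genes with the most similar pattern. The members and lists were chosen with earlier results of these data known. A listed gene is not reported here. Each library is a separate pool of embryos. The scripts were tested on simulated data.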

Additional observations from a re-analysis of the deposited data

How the results depend on the processing

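Of the 17 alternatives, *Npr1* and *Nppc* kept their direction and missed the threshold in all. The log2 fold change turned with the myocardial covariate, which did not overlap between the groups, for *Nppa* (1.94), *Nppb* (1.41), *Npr3* (0.15) and *Corin* (0.020). Without wildtype replicate 3 it turned for *Nppa* (0.49) and *Nppb* (0.28). On leaving out 1 library, *Nppa* ranged from -2.52 to 0.49 and *Nppb* from -1.50 to 0.28. The log2 ratio of *Nppa* to the myocardial markers turned without mutant replicate 2, with a range from -1.75 to 0.060. Scaling by library size alone moved the median of all genes to 0.11. Members called numbered 1 with DESeq2 and 0 to 1 on leaving out 1 library. All genes called, 6 in the main test, numbered 742 with DESeq2, 3 with the myocardial covariate, 2 at an adjusted p of 0.01 and 1 to 2593 on leaving out 1 library. Pathway genes called numbered 2 with DESeq2 and 0 to 2 on leaving out 1 library, and regulators 1 and 0 to 6. The causes were not tested.

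With the replicate number as a block, 1577 genes (5.6%), 4 members (*Nppa*, *Nppb*, *Npr2* and *Npr3*), 3 pathway genes and 4 regulators were called, and with the block and the GC content and length correction 2148 (7.63%), 3, 6 and 6. Under the block alone the log2 fold changes were -1.15 for *Nppa*, -0.61 for *Nppb*, 0.60 for *Npr2* and -0.64 for *Npr3*. Their edgeR adjusted p values were 0.001, 0.0153, 0.00545 and 0.00153. With the pairing by description 83 genes were called, and 0 members, 0 pathway genes and 0 regulators. The numbers were not taken to pair the samples, since same-numbered libraries deviated together with correlations of 0.096, 0.159 and 0.42, the first under 0.1, and mutant replicate 2 correlated best with wildtype replicate 1 (0.277). Depth limits *Nppc*, at 9 to 53 reads.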

Other observations

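The mesenchymal, blood, liver and endocardial marker sums had orders of libraries other than that of the myocardial sum. Within each label, the smooth muscle and endothelial sums followed the order of the myocardial sum. Smooth muscle markers summed to 1588, 1842 and 2078 CPM in wildtype replicates 1 to 3. In mutant replicates 1 to 3 they summed to 1619, 1433 and 1646 CPM. The endothelial sums were 907, 1141 and 1196 CPM against 970, 959 and 1067 CPM. All 7 mesenchymal markers had log2 fold changes above 0 (median 0.61), and none was called by edgeR. The 7 blood markers summed to 5289, 11774 and 10089 CPM in wildtype replicates 1 to 3 and to 6126, 6080 and 6221 CPM in mutant replicates 1 to 3, with wildtype replicate 1 below every library labelled mutant. The 5 liver markers summed to 2.002, 91.9 and 25.5 CPM against 3.27, 5.84 and 1.56 CPM, so that wildtype replicates 2 and 3 held more of them than the other 4 libraries. The 6 endocardial markers summed to 216 to 236 CPM under the wildtype label and 244 to 262 CPM under the mutant label, without overlap. The sum did not hold for each marker, since 5 had log2 fold changes above 0 and 1 below 0. The latter was *Adgrg6*, lower in every library labelled mutant than in any labelled wildtype. Groups did not overlap for 4 of the 6 markers, against 19.6% of all genes, and none was called by edgeR.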
